A study of Mus musculus with 9 samples.

Results

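The 10 genes described here encode proteins that fuse mitochondria (Mfn1, Mfn2, Opa1), divide them (Dnm1l, Fis1, Mff) or mark them for removal (Pink1, Bnip3, Bnip3l, Fundc1). They were chosen by name, from 54532 genes in the deposited table, and all 10 passed the filter on low counts that left 13326 genes for testing. Poly(A)-selected RNA of RENCA, a mouse renal carcinoma cell line, gave 9 libraries, with 3 libraries for each of 3 groups. Rescue cells (labelled NDUFA4L2 +/+) re-expressed Ndufa4l2 from a lentiviral vector with a puromycin resistance cassette, introduced into knockout cells that were then selected with puromycin at 1.5 ug/mL. Knockout cells (labelled NDUFA4L2 -/-) derived from colonies of single cells that had received a CRISPR guide in the plasmid PX458, and empty-vector cells (labelled WT) carried the vector alone. All groups were grown in the same serum-supplemented RPMI medium. The sources used here do not give how many knockout clones were sequenced, whether the empty-vector cells were cloned or whether those cells saw puromycin, so that effects of the gene, of clone choice and of selection cannot be told apart. The labels and the table hold 3 knockout libraries, more than the series text states, and all 3 were used.

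Mitochondria form a network that is constantly joined and divided. Mitofusins on the outer membrane and the dynamin-like GTPase Opa1 on the inner membrane join mitochondria, while the GTPase Dnm1l, known as Drp1, is recruited by adaptors such as Mff to pinch them apart. Damaged or surplus mitochondria are removed by mitophagy, either through the kinase Pink1, which builds up on depolarised mitochondria and phosphorylates ubiquitin there, or through receptors in the outer membrane (Bnip3, Bnip3l and Fundc1) that bind the autophagosome directly. Bnip3 and Bnip3l are textbook targets of hypoxia-inducible factor, whose activity is a hallmark of clear cell renal carcinoma. Ndufa4l2, itself known as a hypoxia-inducible gene, encodes a mitochondrial protein related to a respiratory-chain subunit.

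Library totals ran from 13106531 to 26643877 counts. Levels are normalised read counts (CPM, counts brought to a common library size with TMM factors), and a gene was called when the edgeR quasi-likelihood test gave an adjusted p under 0.05 over all genes tested. Ndufa4l2 stood at 2.602, 2.629 and 2.201 CPM in the rescue libraries, 0.44, 0.66 and 0.25 in knockout and 0.53, 0.39 and 0.64 in empty vector, a rescue-to-knockout change of 2.57 ± 0.34 on the log2 scale (SE; edgeR adjusted p = 2.15e-06). Knockout and empty vector overlapped near the floor of detection (6 to 8 and 6 to 16 counts), so its RNA checks the label of the rescue cells but not that of the knockout; an edit need not remove the transcript. Transcripts of the mitochondrial DNA made up 2.47% ± 0.21 of counts in rescue, 7.01% ± 1.10 in knockout and 2.79% ± 0.55 in empty vector (SD, n = 3). Of 10 renal epithelial markers 8 were testable, among them Krt8, Pax8 and Cdh16, while Krt19 and Epcam had at most 1 count in any library. These markers summed to 1345 to 1399 CPM in rescue, 1644 to 1762 in knockout and 1008 to 1238 in empty vector. Within the list Cdh1 averaged 2.46 CPM in rescue, 99.6 in knockout and 11.9 in empty vector, and Pax8 165.3 CPM in rescue, 98.7 in knockout and 236.6 in empty vector. The 10 leukocyte markers summed to 36.4 to 41.9 CPM in rescue, 207 to 224 in knockout and 74.8 to 80.8 in empty vector; most of this was Cd68, 5 of the 10 had no count in any library and Ptprc had at most 2. The 8 endothelial and fibroblast markers summed to 28.5 to 30.7 CPM in rescue, 60.1 to 71.7 in knockout and 26.6 to 33.9 in empty vector, with Kdr at 0. Most of this was Pdgfrb, which averaged 24.8 CPM in rescue, 59.3 in knockout and 27.8 in empty vector. With the genes of the mitochondrial genome left out, 3928 genes were called higher and 4138 lower in knockout against empty vector, beside 3935 and 4143 with them. Beyond this, the part of the mitochondrial share and of these markers in the results was not tested. Scaling by library totals alone shifted the log2 change of the median gene by -0.15 in knockout against empty vector and by 0.18 in rescue against knockout. Of all calls, 34.4% and 69.6% were then in the higher direction in these comparisons, against 48.7% and 51.9% with TMM factors. The labels do not say whether libraries of a group came from separate cultures. The p-values set differences between groups against the scatter of libraries within groups, and that scatter may be only technical. As in any bulk sample, fewer cells of a type and less RNA per cell cannot be told apart.

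The called genes of mitochondrial dynamics and mitophagy changed in both directions and mostly by modest amounts. In knockout cells against empty-vector cells, Pink1, Fis1 and Mfn1 rose and Mff fell. In rescue cells against knockout cells, Bnip3, Bnip3l and Mff rose and Pink1, Mfn1 and Opa1 fell. In rescue cells against empty-vector cells, Bnip3l, Fis1 and Mff rose and Opa1 fell. Only Bnip3 in rescue against knockout passed a doubling among these called changes. Of the 10 genes, 4 were called in knockout against empty vector, where 60.6% of all tested genes were called, 6 in rescue against knockout, where 56.8% were, and 4 in rescue against empty vector, where 47.5% were. The number called is thus near the background or below it, and says nothing particular about these genes. With library totals as the scale, 8, 7 and 4 of the 10 genes were called in these comparisons. Of all 13326 tested genes, 2906 were then called higher and 5544 lower in knockout against empty vector. In rescue against knockout 5916 and 2582 were, and in rescue against empty vector 3256 and 2963. By separation of libraries, 3 genes lay wholly higher and 1 wholly lower in knockout than in empty vector, where 30.8% and 32.8% of all tested genes did (63.7% in either direction). Between rescue and knockout 4 lay higher and 3 lower, beside 34.6% and 30.7% of all genes (65.3%), and between rescue and empty vector 7 lay higher and 1 lower, beside 26.5% and 28.6% (55.1%). Their median log2 change was -0.02 in knockout against empty vector, 0.06 in rescue against knockout and 0.12 in rescue against empty vector, beside -0.02, 0.03 and -0.02 over all tested genes. Knockout libraries enter the first of these comparisons and the second, so that changes in opposite directions in them are not independent.

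**Figure D1:**
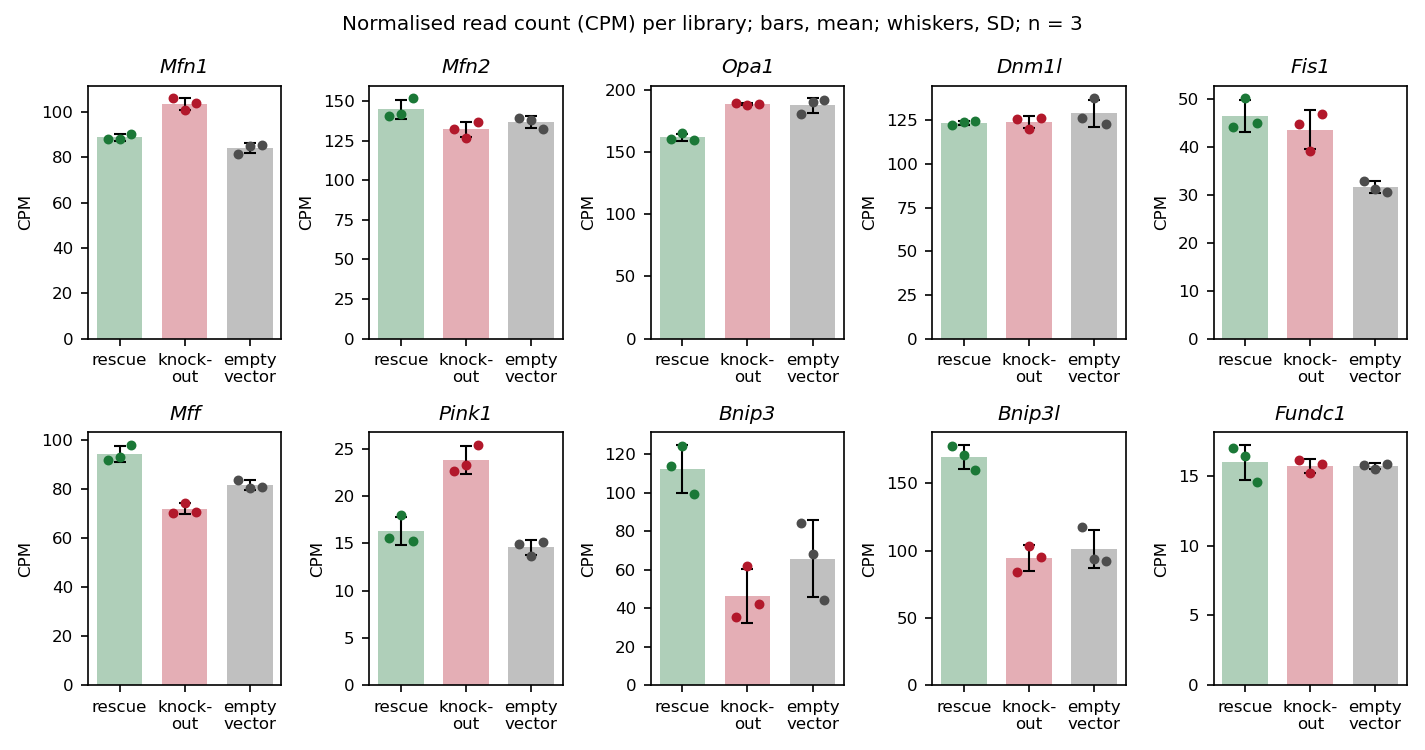
Normalised read counts (CPM, linear axes from 0) of the 10 genes in rescue, knockout and empty-vector libraries; points are libraries, bars the mean and whiskers the SD (n = 3). Pink1 and Mfn1 stand highest in knockout, Bnip3 and Bnip3l highest in rescue (112.5 and 169.8 CPM on average), Opa1 lowest in rescue and Fis1 lowest in empty vector, and the libraries of Dnm1l and Fundc1 overlap between all groups.

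Among the fusion genes, the outer-membrane mitofusin Mfn1 (chromosome 3, 32529465 to 32579239, plus strand, mm10) stood apart from its paralogue. Mfn1 had 88.0, 87.9 and 90.5 CPM in rescue libraries 1 to 3, 106.0, 101.0 and 103.9 in knockout and 81.678, 84.997 and 85.602 in empty vector. The knockout libraries lay above all others, and those of rescue lay just above those of empty vector. Mfn1 rose in knockout against empty vector by 0.30 ± 0.06 log2 units (SE; edgeR adjusted p = 0.00011), which is 1.23-fold. It fell in rescue against knockout (-0.22 ± 0.06; edgeR adjusted p = 0.0020), a call that was lost with library totals as the scale (-0.04, edgeR adjusted p = 0.59, where the median of all genes was 0.22). Between rescue and empty vector the difference of 0.08 (95% interval -0.04 to 0.20) was not called, at an edgeR adjusted p of 0.27.

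Mfn2 (chromosome 4, 147873599 to 147904704, minus strand), the mitofusin that also tethers mitochondria to the endoplasmic reticulum, was the more abundant of the pair. It ranged from 141.1 to 152.2 CPM in rescue, 127.1 to 137.0 in knockout and 132.6 to 139.7 in empty vector. All rescue libraries lay above all others, by small margins. Mfn2 was called in no comparison: the log2 change was 0.13 ± 0.06 in rescue against knockout (edgeR adjusted p = 0.066), with a 95% interval of 0.01 to 0.25. That value passed the threshold without empty-vector replicate 1 (edgeR adjusted p = 0.024), with no filter on low counts (edgeR adjusted p = 0.049) and with library totals (0.32, edgeR adjusted p = 0.000105). Knockout against empty vector gave -0.05 (95% interval -0.17 to 0.08) and rescue against empty vector 0.08 (-0.04 to 0.21). With library totals as the scale Mfn2 was called lower in knockout against empty vector (-0.20, edgeR adjusted p = 0.0061), near the median of all genes at that scale (-0.17).

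Opa1 (chromosome 16, 29579334 to 29654884, plus strand) fuses the inner membrane and shapes the cristae. It had 160.8, 165.1 and 159.4 CPM in rescue, 189.4, 187.5 and 188.2 in knockout and 180.5, 190.1 and 191.5 in empty vector. The rescue libraries were below all others, and those of knockout lay inside the range of empty vector. Opa1 fell in rescue against knockout (-0.22 ± 0.06; edgeR adjusted p = 0.0025) and against empty vector (-0.21 ± 0.06; edgeR adjusted p = 0.0043). With library totals the first of these was not called (-0.04, edgeR adjusted p = 0.63), while the second was kept in all 18 alternatives, from -0.23 to -0.18. In knockout against empty vector the log2 change was 0.01, with a 95% interval of -0.11 to 0.13, whereas with library totals Opa1 was called lower there (-0.15, edgeR adjusted p = 0.033).

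Of the fission genes, Dnm1l (chromosome 16, 16312230 to 16358959, minus strand), the GTPase that constricts the organelle, was called in no comparison. It ranged from 122.5 to 124.8 CPM in rescue, 120.2 to 126.4 in knockout and 123.0 to 137.8 in empty vector, and all groups overlapped. The 95% intervals of its log2 change were -0.18 to 0.07 in knockout against empty vector, -0.13 to 0.12 in rescue against knockout and -0.18 to 0.06 in rescue against empty vector. With library totals as the scale it was called lower in knockout against empty vector (-0.21, edgeR adjusted p = 0.0072) and higher in rescue against knockout (0.18, edgeR adjusted p = 0.020), both close to the medians of all genes at that scale.

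Fis1 (chromosome 5, 136953275 to 136966234, plus strand), a small tail-anchored protein of the outer membrane, was lowest in empty vector. It had 44.1, 50.2 and 45.1 CPM in rescue, 44.8, 39.2 and 46.9 in knockout and 32.9, 31.3 and 30.5 in empty vector. Rescue and knockout libraries overlapped each other and lay above every empty-vector library. Fis1 rose by 0.47 ± 0.08 in knockout against empty vector (1.39-fold; edgeR adjusted p = 3.2e-05) and by 0.56 ± 0.08 in rescue against empty vector (1.47-fold; edgeR adjusted p = 8.7e-06), and both calls held in all 18 alternatives. Rescue against knockout gave 0.08 (95% interval -0.08 to 0.24; edgeR adjusted p = 0.37), and 0.27 with library totals, where Fis1 was called (edgeR adjusted p = 0.0055).

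Mff (chromosome 1, 82724890 to 82752394, plus strand), the main adaptor that recruits Dnm1l to the outer membrane, was lowest in knockout. It had 92.0, 93.3 and 98.3 CPM in rescue, 70.5, 74.6 and 70.9 in knockout and 84.0, 80.5 and 80.8 in empty vector, and no library of a group overlapped those of another. Mff fell in knockout against empty vector (-0.19 ± 0.06; edgeR adjusted p = 0.010), rose in rescue against knockout (0.39 ± 0.06; edgeR adjusted p = 1e-05) and rose in rescue against empty vector (0.21 ± 0.06; edgeR adjusted p = 0.0058). These calls held in all 18 alternatives. Mff alone of the 10 genes was called in all 3 comparisons. An intronic transcript on the same strand, Gm28941, had at most 23 counts in any library, against at least 903 for Mff.

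**Figure D2:**
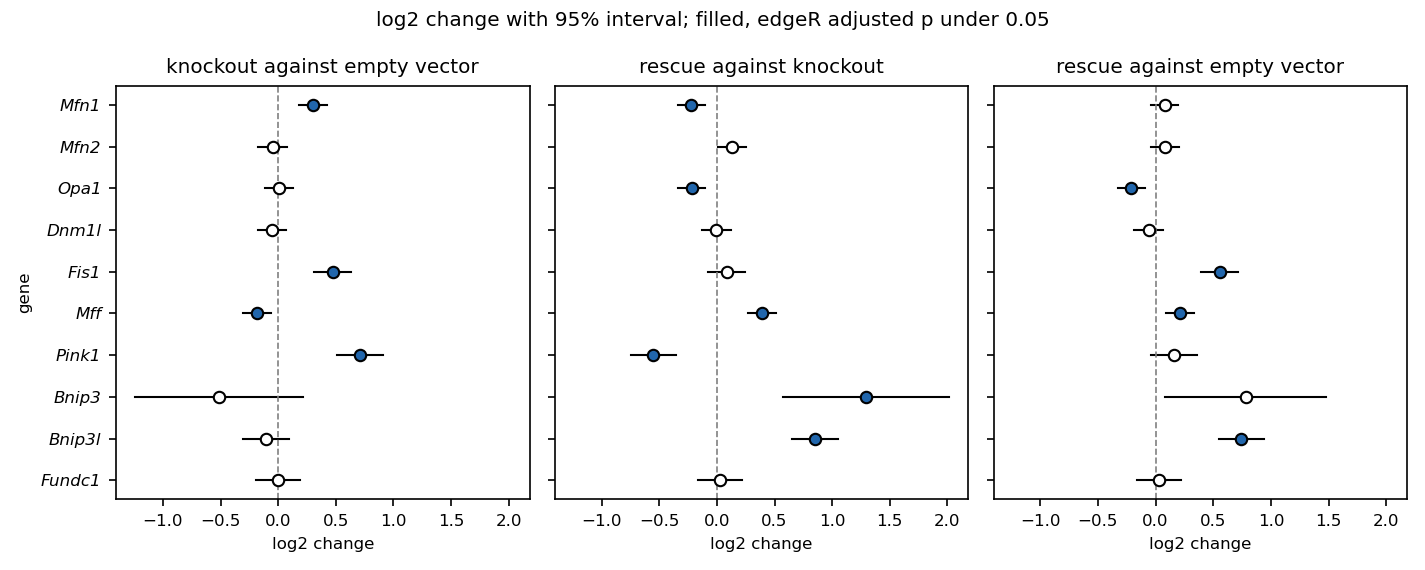
The log2 change of each gene (points) with its 95% interval (lines) with 1 panel per comparison, knockout against empty vector at the left; filled points have an edgeR adjusted p under 0.05. Of the 10 genes, 4, 6 and 4 are filled, Pink1 and Mfn1 lie right of 0 in the first panel and left of it in the second, and Bnip3 has the widest intervals.

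Pink1 (chromosome 4, 138313409 to 138326307, minus strand), the kinase that starts ubiquitin-dependent mitophagy, had the largest called change of the 10 genes in knockout against empty vector. It had 15.57, 18.02 and 15.28 CPM in rescue, 22.69, 23.30 and 25.45 in knockout and 14.96, 13.63 and 15.08 in empty vector. The knockout libraries lay above all others, and the lowest rescue library lay just above the highest of empty vector. Pink1 rose in knockout against empty vector by 0.71 ± 0.09 log2 units (1.64-fold; edgeR adjusted p = 2.1e-06) and fell in rescue against knockout (-0.55 ± 0.09; edgeR adjusted p = 4.3e-05), and both calls held in all 18 alternatives. Rescue against empty vector gave 0.16 (95% interval -0.04 to 0.35; edgeR adjusted p = 0.19).

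Bnip3 (chromosome 7, 138890836 to 138909519, minus strand) and Bnip3l (chromosome 14, 66985239 to 67008877, minus strand), the hypoxia-linked mitophagy receptors, were highest in rescue. Bnip3 had 114.2, 124.3 and 99.2 CPM in rescue, 35.2, 62.0 and 42.0 in knockout and 84.2, 68.4 and 44.4 in empty vector. All rescue libraries lay above all others, knockout and empty vector overlapped, and within each of these groups the highest library was well above the lowest. In rescue against knockout Bnip3 rose 2.45-fold (1.29 ± 0.30 log2 units; edgeR adjusted p = 0.0097), and this held in all 18 alternatives with a range of 1.14 to 1.54. Against empty vector the rescue cells showed 0.78 ± 0.29 (edgeR adjusted p = 0.067), which was not called, but passed the threshold in DESeq2 (adjusted p = 0.028), with only the compared groups in the fit (edgeR adjusted p = 0.048), without empty-vector replicate 1 (edgeR adjusted p = 0.033) and without knockout replicate 2 (edgeR adjusted p = 0.048). Knockout against empty vector gave -0.51 ± 0.30 (edgeR adjusted p = 0.19), from -0.76 without knockout replicate 2 to -0.27 without empty-vector replicate 1, and passed the threshold without empty-vector replicate 3 (-0.74, edgeR adjusted p = 0.049).

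Bnip3l, also called Nix and known for clearing mitochondria from maturing red blood cells, varied less between libraries. It had 178.2, 171.2 and 160.0 CPM in rescue, 84.2, 103.3 and 95.5 in knockout and 117.9, 93.5 and 92.6 in empty vector. The rescue libraries lay above all others and the other groups overlapped. Bnip3l rose by 0.85 ± 0.09 in rescue against knockout (1.80-fold; edgeR adjusted p = 1.6e-06) and by 0.74 ± 0.09 in rescue against empty vector (1.68-fold; edgeR adjusted p = 1.1e-05), in all 18 alternatives. In knockout against empty vector the log2 change was -0.11 (95% interval -0.31 to 0.09; edgeR adjusted p = 0.35); it was 0.03 without empty-vector replicate 1, and with library totals it was called (-0.26, edgeR adjusted p = 0.016). A processed pseudogene, Bnip3l-ps, held 6.38% to 6.88% as many counts as Bnip3l in rescue libraries, 5.51% to 7.81% in knockout and 6.95% to 7.60% in empty vector, so reads may be split between the copies. Summing both, an alternative chosen after the data were seen, kept every call of Bnip3l.

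Fundc1 (chromosome X, 17556564 to 17572325, minus strand), a receptor whose phosphorylation state controls mitophagy in hypoxia, was called in no comparison. It ranged from 14.6 to 17.0 CPM in rescue, 15.2 to 16.2 in knockout and 15.5 to 15.9 in empty vector, and all groups overlapped. The 95% intervals were -0.19 to 0.19 log2 units in knockout against empty vector, -0.16 to 0.22 in rescue against knockout and -0.16 to 0.22 in rescue against empty vector.

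The sequences before the starts of Bnip3, which rose most in rescue against knockout, and of Pink1, which fell most, are shown because these genes moved in opposite directions. They are from RefSeq (GRCm38.p6), 5′ to 3′ on the minus strand, and end where the gene of the deposited table begins. Capitals mark ACGTG and GCGTG, the core letters of the hypoxia response element, on either strand; neighbouring matches share bases.
Bnip3, chr7:138909520-138909756: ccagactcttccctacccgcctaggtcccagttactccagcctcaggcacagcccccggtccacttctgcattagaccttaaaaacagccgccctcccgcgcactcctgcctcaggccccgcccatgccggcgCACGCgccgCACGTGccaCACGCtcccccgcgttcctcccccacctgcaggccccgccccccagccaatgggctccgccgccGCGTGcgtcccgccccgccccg
Pink1, chr4:138326308-138326546: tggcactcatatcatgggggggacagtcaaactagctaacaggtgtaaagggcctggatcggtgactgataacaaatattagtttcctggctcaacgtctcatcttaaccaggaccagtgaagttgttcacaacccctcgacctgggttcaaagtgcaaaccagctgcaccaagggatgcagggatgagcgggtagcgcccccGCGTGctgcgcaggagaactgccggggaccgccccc
The Bnip3 stretch held 2 overlapping matches of ACGTG, on opposite strands, and 3 of GCGTG, and the Pink1 stretch 1 of GCGTG. Over the 250 bases before each start, ACGTG was in 16.6% of 32851 RefSeq windows, GCGTG in 28.2% and at least 1 of them in 38.6%, so such matches are common. Of the 10 genes 9 had an entry (all but Bnip3l), 4 of these had a match in at least 1 window (Bnip3, Pink1, Mfn2, Dnm1l), and Bnip3 and Mfn2 had ACGTG.

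Levels were compared between genes with the deposited FPKM values, which are per length. The order thus depends on the deposited gene lengths, such as 9757 bases for Mff and 2673 for Pink1. By CPM, Mff stood above Pink1 in knockout (72.0 against 23.8 on average). In rescue, Bnip3 (49.3 ± 5.58 FPKM) and Bnip3l (43.7 ± 2.33) stood highest with overlapping libraries, clear of Mfn2 (27.7 ± 1.18) and Fis1 (26.9 ± 1.95; SD, n = 3). In knockout, Mfn2, Fis1, Bnip3l, Opa1, Dnm1l and Bnip3 formed a run from 25.5 ± 0.92 to 20.5 ± 6.15 FPKM in which each overlapped its neighbour. In empty vector, Bnip3, Mfn2, Bnip3l, Dnm1l and Opa1 formed such a run from 28.7 ± 8.95 to 23.5 ± 0.54 FPKM, with Fis1 below it at 18.2 ± 0.88. Dnm1l (23.6 ± 0.24) and Opa1 (20.4 ± 0.40) followed in rescue without overlap. Mfn1 came next after these in each group, at 14.4 ± 0.24 FPKM in rescue, 17.0 ± 0.44 in knockout and 13.6 ± 0.22 in empty vector, and overlapped Bnip3 in knockout. The lower end differed in order: Pink1 was last in rescue (6.05 ± 0.57 FPKM, overlapping Fundc1 at 6.76 ± 0.53) and in empty vector (5.38 ± 0.33), but stood above Mff and Fundc1 in knockout (8.91 ± 0.52, against 7.38 ± 0.23 and 6.69 ± 0.21), with no overlap.

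A ratio of 2 genes within a library does not depend on how libraries are scaled. The count ratio of Mfn1 to Mfn2 was 0.62, 0.62 and 0.59 in rescue libraries, 0.80, 0.79 and 0.76 in knockout and 0.58, 0.61 and 0.65 in empty vector. Knockout lay above both other groups without overlap, by 0.35 log2 units against empty vector, and rescue lay below knockout by -0.36, while rescue and empty vector overlapped with a difference of -0.004. The count ratio of Opa1 to Dnm1l was 1.31, 1.33 and 1.28 in rescue, 1.50, 1.56 and 1.49 in knockout and 1.43, 1.38 and 1.56 in empty vector. Rescue lay below knockout (a log2 difference of -0.21) and below empty vector (-0.15) without overlap. Bnip3 to Bnip3l gave 0.64, 0.73 and 0.62 in rescue, 0.42, 0.60 and 0.44 in knockout and 0.71, 0.73 and 0.48 in empty vector. Rescue lay above knockout without overlap (a log2 difference of 0.46), while empty vector overlapped both. With 3 libraries a group, the two-sided exact permutation test cannot go below p = 0.10, the value reached by all 5 differences without overlap, or 0.18 after Benjamini-Hochberg adjustment over the 9 differences; the other exact p-values were 0.20 to 1.

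**Figure D3:**
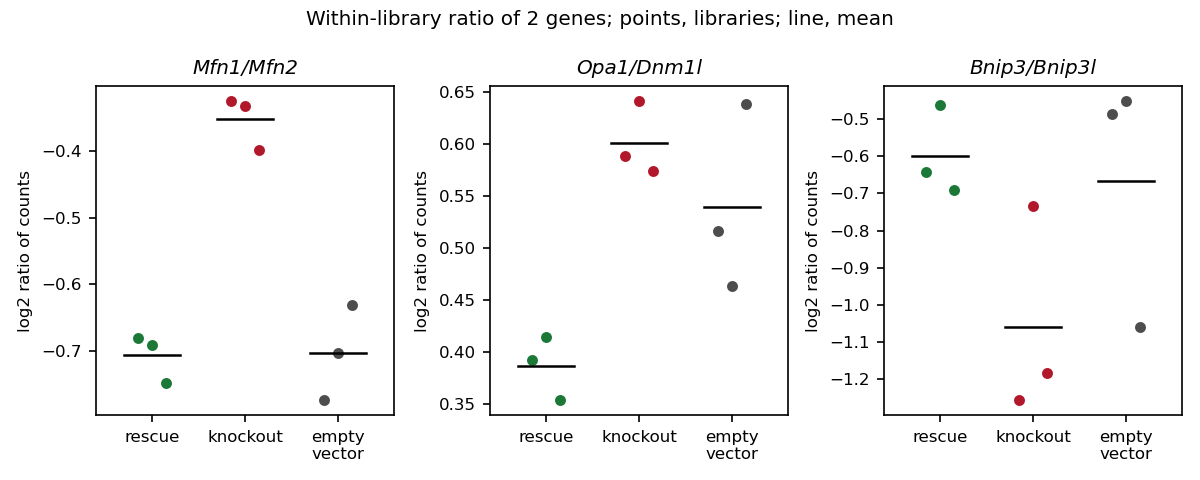
The log2 ratio of counts of 2 genes within each library, for Mfn1 over Mfn2, Opa1 over Dnm1l and Bnip3 over Bnip3l; points are rescue, knockout and empty-vector libraries and lines are means. The axes do not start at 0. For Mfn1 over Mfn2 the knockout libraries (mean -0.35) lie above rescue (-0.71) and empty vector (-0.70), and for Opa1 over Dnm1l the rescue libraries (mean 0.39) lie below both other groups.

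Partners of these genes were taken from lists written with earlier results of these data known, and counts are given beside the share of all tested genes called in the same direction: 29.5% higher and 31.1% lower in knockout against empty vector, 29.5% and 27.3% in rescue against knockout, and 22.4% and 25.1% in rescue against empty vector. Counts with library totals belong beside the calls over all 13326 genes at that scale. These were 2906 higher and 5544 lower in knockout against empty vector and 5916 and 2582 in rescue against knockout. In rescue against empty vector they were 3256 and 2963. Of 11 testable fusion partners and proteases, 1 rose and 5 fell in knockout against empty vector (1 and 9 with library totals), 8 rose and 2 fell in rescue against knockout (8 and 1 with library totals), and 3 rose and 4 fell in rescue against empty vector. The median log2 change was -0.22, 0.29 and -0.19 in these comparisons, in that order, which is kept for the medians that follow, and the first was -0.37 and the second 0.48 with library totals. Yme1l1, the inner-membrane protease that cleaves Opa1, stood at 202 ± 3.53 CPM in rescue, 171 ± 5.996 in knockout and 346 ± 25.2 in empty vector (SD, n = 3). Its fall in knockout against empty vector was -1.02 ± 0.06 log2 units (SE; edgeR adjusted p = 1.2e-10) and that in rescue against empty vector -0.78 ± 0.06. Immt, the cristae organiser mitofilin, fell in knockout against empty vector (-0.66 ± 0.06) and rose in rescue against knockout (0.44 ± 0.06). Afg3l2, a protease of the inner membrane, fell in knockout against empty vector (-0.48 ± 0.07), and the scaffold gene Phb rose in rescue against knockout (0.52 ± 0.07) and against empty vector (0.49 ± 0.07). Miga2, an outer-membrane fusion factor, fell in rescue against knockout (-0.72 ± 0.08), and Mtch2, an outer-membrane insertase, rose in rescue against empty vector (0.44 ± 0.06).

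Of 12 testable fission adaptors and regulators, 4 rose and 5 fell in knockout against empty vector, 3 and 4 in rescue against knockout (5 and 2 with library totals), and 2 and 3 in rescue against empty vector. Median log2 changes were 0.03, -0.07 and -0.03, of which the first turned to -0.12 and the second to 0.11 with library totals. Inf2, a formin that builds actin where the endoplasmic reticulum meets mitochondria, stood at 58.8 ± 5.61 CPM in rescue, 87.5 ± 1.24 in knockout and 38.4 ± 3.44 in empty vector (SD, n = 3). It rose in knockout against empty vector by 1.19 ± 0.08 log2 units (edgeR adjusted p = 1.5e-10), fell in rescue against knockout (-0.57 ± 0.08) and rose in rescue against empty vector (0.62 ± 0.08). March5, an outer-membrane ubiquitin ligase, fell in knockout against empty vector (-0.45 ± 0.07) and Mtfr1l rose (0.45 ± 0.07), also in rescue against empty vector (0.35 ± 0.07). The ligase gene Mul1 fell in rescue against knockout (-0.58 ± 0.07) and against empty vector (-0.46 ± 0.07), and the fission regulator Mtfr1 rose in rescue against knockout (0.44 ± 0.07). In the list of 7 mitochondrial transport genes, 2 rose and 4 fell in knockout against empty vector (1 and 5 with library totals), 4 rose and 1 fell in rescue against knockout (5 and 1 with library totals), and 1 rose in rescue against empty vector. Median log2 changes were -0.29, 0.21 and -0.02 (-0.45, 0.40 and 0.01 with library totals). Rhot1, the outer-membrane GTPase Miro1, fell in knockout against empty vector (-0.60 ± 0.06) and rose in rescue against knockout (0.56 ± 0.06). The kinesin heavy chain Kif5b did likewise (-0.44 ± 0.06 and 0.62 ± 0.06) and rose in rescue against empty vector (0.18 ± 0.06), and the metaxin gene Mtx1 rose in knockout against empty vector (0.64 ± 0.07) and fell in rescue against knockout (-0.66 ± 0.07).

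Of 16 testable genes of other mitophagy receptors, the Pink1 pathway and cargo adaptors, 4 rose and 8 fell in knockout against empty vector (2 and 9 with library totals), 8 rose and 3 fell in rescue against knockout (10 and 3 with library totals), and 4 rose and 6 fell in rescue against empty vector. Median log2 changes were -0.14, 0.14 and -0.02 (-0.29, 0.32 and 0.01 with library totals). Sqstm1, the cargo adaptor p62, stood at 905 ± 62.9 CPM in rescue, 1455 ± 33.4 in knockout and 1348 ± 77.6 in empty vector (SD, n = 3). It fell in rescue against knockout (-0.69 ± 0.07; edgeR adjusted p = 2e-07) and against empty vector (-0.57 ± 0.07). Usp15, a deubiquitinase that opposes mitophagy, fell in knockout against empty vector (-0.70 ± 0.07), where the autophagy receptor Nbr1 rose (0.63 ± 0.08), as did Calcoco1 (0.57 ± 0.08), a receptor for the endoplasmic reticulum. Nbr1 fell in rescue against knockout (-0.63 ± 0.08) and the deubiquitinase Usp8 rose (0.49 ± 0.06). Tax1bp1, another cargo adaptor, rose in rescue against empty vector (0.60 ± 0.06), and so did Calcoco1 (0.55 ± 0.08).

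Of 30 core autophagy genes, which build the autophagosome, 12 rose and 5 fell in knockout against empty vector (9 and 10 with library totals), 6 rose and 9 fell in rescue against knockout (15 and 7 with library totals), and 12 rose and 4 fell in rescue against empty vector. Median log2 changes were 0.11, -0.01 and 0.10, of which the first turned to -0.04 and the second to 0.17 with library totals. Gabarapl1, a membrane anchor of the Atg8 family to which mitophagy receptors bind, stood at 56.5 ± 1.52 CPM in rescue, 76.2 ± 3.67 in knockout and 29.7 ± 1.50 in empty vector (SD, n = 3). It rose in knockout against empty vector by 1.36 ± 0.07 log2 units (edgeR adjusted p = 2.9e-12) and in rescue against empty vector by 0.93 ± 0.07. The lipid transfer protein gene Atg2a rose in the same comparisons (1.11 ± 0.08 and 0.67 ± 0.08), and Ulk1, the kinase that starts autophagy, rose in knockout against empty vector (0.98 ± 0.08). Pik3r4, a subunit of the lipid kinase complex, fell in rescue against knockout (-0.82 ± 0.07), as did the scramblase gene Atg9a (-0.81 ± 0.09) and Atg7 (-0.60 ± 0.07), and the lipid kinase gene Pik3c3 rose in rescue against empty vector (0.74 ± 0.09).

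Of 15 genes of mitochondrial mass and biogenesis, 2 rose and 6 fell in knockout against empty vector (2 and 9 with library totals), 10 rose and 2 fell in rescue against knockout (12 and 0 with library totals), and 3 rose and 2 fell in rescue against empty vector (7 and 2 with library totals). Median log2 changes were -0.12, 0.28 and 0.12 (-0.28, 0.46 and 0.15 with library totals). Ppargc1a, the coactivator of mitochondrial biogenesis, stood at 13.2 ± 1.37 CPM in rescue, 2.52 ± 0.81 in knockout and 12.1 ± 2.38 in empty vector (SD, n = 3). It fell in knockout against empty vector (-2.29 ± 0.20 log2 units; edgeR adjusted p = 3.7e-08) and rose in rescue against knockout (2.41 ± 0.20). The import receptor gene Tomm20 fell in knockout against empty vector (-0.86 ± 0.07), rose in rescue against knockout (0.50 ± 0.07) and was lower in rescue than in empty vector (-0.36 ± 0.07). Pprc1, a relative of Ppargc1a, fell in knockout against empty vector (-0.61 ± 0.06) and in rescue against empty vector (-0.40 ± 0.06). The outer-membrane channel genes Vdac3 and Vdac1 rose, Vdac3 in rescue against knockout (0.46 ± 0.07) and Vdac1 in rescue against empty vector (0.29 ± 0.07).

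Of 8 testable transcription factors known to act on mitophagy genes, 1 rose and 6 fell in knockout against empty vector (none and 6 with library totals), 6 rose and none fell in rescue against knockout (7 and none with library totals), and 4 rose and 1 fell in rescue against empty vector. Median log2 changes were -0.45, 0.45 and 0.03 (-0.60, 0.63 and 0.06 with library totals). Hif1a stood at 498 ± 21.8 CPM in rescue, 366 ± 8.40 in knockout and 332 ± 52.6 in empty vector (SD, n = 3), and rose in rescue against both (0.44 ± 0.09 against knockout and 0.59 ± 0.09 against empty vector). Epas1, which encodes the related HIF2-alpha, had at most 3 counts in any library. Atf4 rose in rescue against knockout (0.97 ± 0.08; edgeR adjusted p = 6.4e-09) and against empty vector (0.53 ± 0.08), and Tfeb, a regulator of lysosome and autophagy genes, rose in rescue against knockout (0.55 ± 0.07). Foxo3 fell in knockout against empty vector (-0.61 ± 0.07) and in rescue against empty vector (-0.56 ± 0.06), and Foxo1 and Trp53 fell in knockout against empty vector (-0.58 ± 0.10 and -0.46 ± 0.08). Of 18 testable hypoxia-inducible factor targets, a list that leaves out Bnip3 and Bnip3l, 7 rose and 2 fell in rescue against knockout (10 and 1 with library totals), 9 and 2 in rescue against empty vector, and 8 and 5 in knockout against empty vector (5 and 6 with library totals). The median log2 change of these targets was 0.11 in rescue against knockout (0.30 with library totals), 0.32 in rescue against empty vector and 0.05 in knockout against empty vector (-0.10 with library totals). Pgk1 and Pdk1 rose in rescue against knockout (0.98 ± 0.08 and 0.92 ± 0.08), Adm fell in knockout against empty vector (-1.69 ± 0.08), rose in rescue against knockout (1.01 ± 0.07) and was lower in rescue than in empty vector (-0.69 ± 0.07). Ddit4 rose in knockout and in rescue against empty vector (0.88 ± 0.08 and 0.87 ± 0.08), Pdk1 also rose in rescue against empty vector (0.61 ± 0.08), and the hexokinase gene Hk2 fell in knockout against empty vector (-0.49 ± 0.06).

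**Figure D4:**
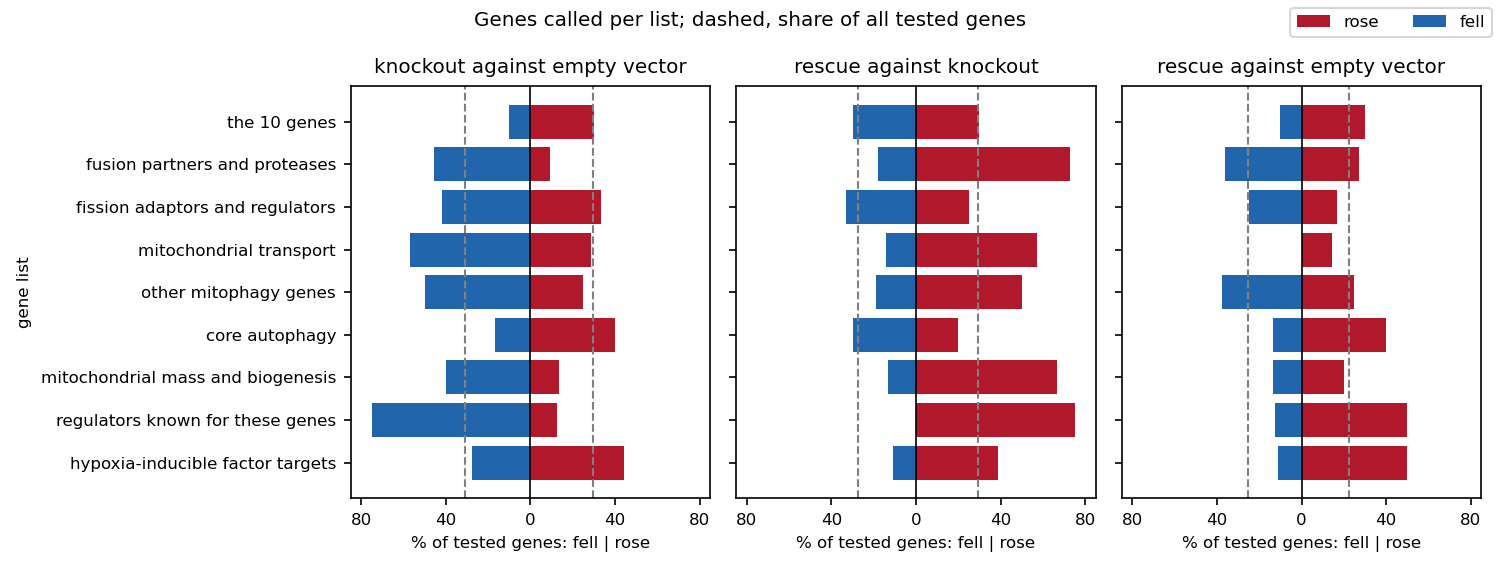
Percent of tested genes in each list that rose (red, right) or fell (blue, left) at an edgeR adjusted p under 0.05 with 1 panel per comparison; dashed lines mark the percent over all tested genes. In knockout against empty vector 3 of the 10 genes rose, level with the dashed line, and 1 fell, below it, while 6 of 8 transcription factors (the regulators) fell there and 6 of 8 rose in rescue against knockout.

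Bnip3 and Bnip3l had the widest range of group means among the 10 genes (1.31 and 0.85 log2 units; the narrowest were Dnm1l at 0.06 and Fundc1 at 0.02). By the Euclidean distance of centred log2 CPM over the 9 libraries, among 13325 other tested genes, those nearest to Bnip3 were Pla2g5, Pfkl, Snord85, Pdk1 and Hsd11b1, at distances of 0.81 to 0.87. Pla2g5, the nearest, averaged 14.012 CPM in rescue, 5.152 in knockout and 8.359 in empty vector. Pfkl, a phosphofructokinase subunit of glycolysis, averaged 318 CPM in rescue, 154 in knockout and 160 in empty vector. Snord85 was low in all groups, at 0.972 CPM in rescue, 0.286 in knockout and 0.496 in empty vector. Pdk1, a kinase that blocks pyruvate dehydrogenase, averaged 62.3 CPM in rescue, 33.0 in knockout and 40.9 in empty vector. Hsd11b1 averaged 21.954 CPM in rescue, 9.104 in knockout and 10.902 in empty vector. Nearest to Bnip3l were Gm13394, Ccdc126, Gmnn, Ldha and Gm48978, at 0.26 to 0.33. With the groups in the same order, Gm13394 averaged 681.9, 420.8 and 447.7 CPM, Ccdc126 40.7, 23.1 and 24.0, and Gmnn 48.8, 28.4 and 27.3. Ldha averaged 1609, 1029 and 997 CPM, and Gm48978 13.8, 7.14 and 8.49. These distances follow the 3 group means and carry no test.

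The authors' deposited table, which holds their own fold changes and adjusted p-values for the same counts, differed from these calls for 2 of the 10 genes. Mff in knockout over empty vector had a log2 fold change of -0.18 and an adjusted p of 0.060 in the authors' deposited table, so that 3 genes were higher and none lower there at 0.05. Bnip3 in rescue over empty vector had 0.79 and an adjusted p of 0.015 in the authors' deposited table, giving 4 higher and 1 lower. For knockout over rescue, the direction the authors' deposited table uses, 3 genes were higher and 3 lower.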

How the data were processed

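The authors deposited raw read counts per gene, whole and not normalized, per the file headers. The deposited FPKM values, 1 column a library per the file headers, served only to order levels. The authors' log2 fold changes and adjusted p-values were deposited in the same table, with their test not given in the sources used here. Tools named without version in the submitters' processing notes are HISAT2, HISAT, TopHat2 and CASAVA, with the build mm10; the counter and its strand setting are not given in the sources used here, and genes overlapping the 10 had at most 23 counts in any library.

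The main test was that of edgeR 4.0.16, run in R 4.3.3 (filterByExpr, TMM, robust quasi-likelihood fit, 1 mean per group, all 9 libraries), with Benjamini-Hochberg adjustment over 13326 genes. Standard errors come from the log2 change and its F statistic (change over root F), and intervals use the moderated degrees of freedom. Tested on simulated data, the fit made a share of false calls somewhat above the threshold in each comparison. It recovered 68.7% to 77.6% of 1.5-fold changes, 85.1% to 89.6% of 2-fold changes and 89.4% to 100% of 4-fold changes. Only 67, 67 and 66 genes were changed at these sizes, of 13108 to 13122 tested. In the data 47.5% to 60.6% of genes were called, so the simulated share of false calls need not carry over. Replicates of a group were compared in pairs, and all 9 pairs exceeded counting noise (chi-square over its degrees of freedom, 3.53 to 19.5). Alternatives included DESeq2 1.42.0 and limma 3.58.1. The 10 genes were described in full; from each other list, up to 3 called genes per comparison were named, by smallest adjusted p among those with at least 10 CPM. The genes and lists were chosen with earlier results of these data known. 1 listed gene is not reported here.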

Additional observations from a re-analysis of the deposited data

How the results depend on the processing

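Over 18 alternatives, 12 of the 14 called results of the 10 genes kept their call and direction in all of them. Mfn1 and Opa1 in rescue against knockout lost theirs with library totals as the scale. Of these alternatives 9 leave out a single library each and another sums Bnip3l with its pseudogene. The rest change the scaling, the filter, the model or the genes and groups kept. All reuse the same libraries, so they are not independent of each other. In knockout against empty vector 8 genes, not 4, were called with library totals (3 higher and 5 lower). Of all 13326 tested genes, 2906 were called higher and 5544 lower there at that scale. With library totals the log2 change was -0.15 for Opa1 and -0.15 for Fundc1 in knockout against empty vector and 0.18 for Dnm1l in rescue against knockout; with no filter on low counts these were -0.040, -0.046 and 0.035, and Fundc1 stood at -0.00040 with only the compared groups in the fit. None of these was called in the main analysis, and each turned its direction; with library totals Opa1 (edgeR adjusted p = 0.033) and Dnm1l (edgeR adjusted p = 0.020) were called in the turned direction. Library totals also shifted the median of all genes, by -0.15 in knockout against empty vector and by 0.18 in rescue against knockout. A cause beyond this shift was not tested. Leaving out each library, changes that were not called ran from -0.0070 to 0.018 for Opa1, -0.18 to 0.029 for Bnip3l and -0.020 to 0.018 for Fundc1 in knockout against empty vector, from -0.025 to 0.0087 for Dnm1l and -0.015 to 0.094 for Fundc1 in rescue against knockout, and from -0.018 to 0.089 for Fundc1 in rescue against empty vector. In rescue against empty vector the log2 ratio difference ran from -0.13 to 0.18 for Bnip3 over Bnip3l and from -0.039 to 0.032 for Mfn1 over Mfn2. The numbers of called genes ran from 4 to 5, 6 to 7 and 4 to 5 without single libraries. Same-numbered libraries did not deviate together (r of -0.15 to 0.05 across genes, beside -0.09 to 0.10 for libraries of different number and group). This check cannot show whether same-numbered libraries were handled together. With the replicate number as a block 4, 6 and 4 of the 10 genes were called, as without it. Depth limits Pink1 and Fundc1 most, with as few as 212 and 184 counts in a library, while Bnip3 is limited by the spread between libraries.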

Other observations

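Among the 10 genes, Mfn2 and Dnm1l had the smallest distance (0.24 of centred log2 CPM over 9 libraries). The hypoxia-linked pair Bnip3 and Bnip3l lay 0.89 apart, farther than Mff and Bnip3l at 0.79. This distance also grows with the size of the changes, so genes that hardly change lie close whatever their pattern. Group means ranged over 0.13 log2 units for Mfn2 and 0.06 for Dnm1l, but over 1.31 for Bnip3 and 0.85 for Bnip3l. Empty-vector replicate 1 had the highest Bnip3 and Bnip3l of its group (84.2 and 117.9 CPM) and empty-vector replicate 3 the lowest (44.4 and 92.6 CPM). These are descriptions of 9 libraries, with no test.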
